A study of Mus musculus with 8 samples.

Results

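Chemokine transcripts were examined in OT-I T cells taken from pancreatic tumours, for the 6 genes Ccl1, Ccl3, Ccl4, Ccl5, Ccl9 and Xcl1 among the 32285 genes of the count matrices. The genes were listed by name, and their transcripts were read in cells with exactly 1 CRISPR guide. Another 38 chemokine genes were measured in the same cells, and Ccl25 alone among them passed 10 CPM in any library, at 11.8 to 14.8 CPM, while 16 were at 0 UMIs. CPM, the usual unit for such counts, relates a gene's UMIs to all gene UMIs in the kept cells of a library, scaled to the same total in every library.

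The cells were CD8+ T cells of OT-I mice, whose T cell receptor recognises an ovalbumin peptide, with Cas9 knocked in. They carried a lentiviral guide library against metabolic genes, were selected by the CD90.1 marker of the vector, and were transferred through the tail vein into Cas9 recipients with an orthotopic tumour of KPC_OVA, a mouse pancreatic ductal adenocarcinoma line that expresses ovalbumin. Recipients received anti-PD-1 from the day of transfer, or control IgG, and after 7 days the CD90.1+ cells of the primary tumour were collected by sorting. Transcripts and guides were counted as unique molecular identifiers (UMIs) with a 10x Genomics 3′ kit in 4 libraries, of which 3 came from anti-PD-1 and 1 from IgG. All libraries therefore share the Cas9 background, the guide library, the tumour line and the time point. Recipients kept their own immune cells, and which mice entered each library is not stated, so n = 3 counts libraries. The names of anti-PD-1 replicates 1 and 2 differ in a numbered ending only, so that n = 3 may stand for 2 separate samples, and p-values measure the spread between these libraries, which may be technical.

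Chemokines are small secreted proteins that steer leukocytes through receptors on the target cell. Ccl3, Ccl4 and Ccl5 are inflammatory chemokines that attract T cells and myeloid cells. Ccl3 and Ccl5 bind Ccr1, and Ccl9 acts through the same receptor. Xcl1 attracts cross-presenting dendritic cells through Xcr1, and Ccl1 is the ligand of Ccr8, a receptor of regulatory T cells in tumours. Activated CD8+ T cells are a known source of Ccl3, Ccl4, Ccl5 and Xcl1, and antigen signals reach several of these genes through the transcription factor NFAT.

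Of the 6 genes, 5 lie on chromosome 11 in GRCm38, with positions from GENCODE M21. Ccl5 (ENSMUSG00000035042) spans chr11:83525778-83530518 and Ccl9 (ENSMUSG00000019122) chr11:83572919-83578636, both on the minus strand. Ccl3 (ENSMUSG00000000982) spans chr11:83647844-83649355 on the minus strand and Ccl4 (ENSMUSG00000018930) chr11:83662584-83664683 on the plus strand, so that these neighbours point away from each other with 13228 bp between them. Ccl1 (ENSMUSG00000020702) is annotated at chr11:82176657-82305690 on the minus strand, 1220087 bp from Ccl5. Xcl1 (ENSMUSG00000026573) is alone on chromosome 1, at chr1:164931644-164935527 on the minus strand. It overlaps Gm20743 on the other strand, a gene with 7 to 57 UMIs in a library.

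Of the 6 members, 4 matched the RefSeq promoter table, and Ccl4 and Ccl5 are not shown. Promoter sequences are given for Ccl3, which varied together with its neighbour Ccl4 from cell to cell, for Ccl1 and Xcl1, which formed the next most correlated pair, and for Ccl9, a near neighbour of Ccl3 that was read at a few CPM. They are the 250 bases before the RefSeq start in GRCm38.p6, at chr11:83649379-83649628, chr11:82179813-82180062, chr1:164935523-164935772 and chr11:83578637-83578886, all read on the minus strand. The Ccl1 window lies inside the span annotated for that gene in GENCODE. Capitals mark GGAAA, the core of NFAT sites, on either strand.
Ccl3: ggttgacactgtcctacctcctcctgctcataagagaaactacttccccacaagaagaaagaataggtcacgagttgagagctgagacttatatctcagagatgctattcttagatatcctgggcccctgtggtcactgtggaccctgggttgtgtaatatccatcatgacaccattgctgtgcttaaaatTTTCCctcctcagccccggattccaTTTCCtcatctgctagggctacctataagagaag
Ccl1: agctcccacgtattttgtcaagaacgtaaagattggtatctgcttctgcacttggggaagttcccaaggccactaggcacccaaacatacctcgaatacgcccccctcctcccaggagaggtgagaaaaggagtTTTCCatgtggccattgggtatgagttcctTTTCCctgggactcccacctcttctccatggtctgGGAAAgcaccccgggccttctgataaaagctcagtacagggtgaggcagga
Xcl1: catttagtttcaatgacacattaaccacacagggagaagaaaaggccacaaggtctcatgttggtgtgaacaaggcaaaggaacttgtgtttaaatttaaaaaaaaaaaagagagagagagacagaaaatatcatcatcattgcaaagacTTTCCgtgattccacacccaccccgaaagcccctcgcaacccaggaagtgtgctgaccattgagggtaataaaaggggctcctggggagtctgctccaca
Ccl9: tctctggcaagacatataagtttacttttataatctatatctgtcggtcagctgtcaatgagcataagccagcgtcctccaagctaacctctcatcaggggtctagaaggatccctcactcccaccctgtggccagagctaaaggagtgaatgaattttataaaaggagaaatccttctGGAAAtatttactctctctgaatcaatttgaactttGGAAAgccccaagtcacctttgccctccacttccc

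The core occurred 3 times before Ccl1, 2 times before Ccl3, 2 times before Ccl9 and 1 time before Xcl1. It is a common string, held by 55.6% of the 32851 promoters of the same length. The AP-1 string TGANTCA, held by 6.75% of promoters, was found before Ccl9, 53 bases from the start. The kappaB string, GGG and TTTCC with 2 free bases between them, held by 1.41%, was found before Ccl9 as well, where it overlaps the GGAAA 35 bases from the start. The RUNX string TGNGGT, held by 40.1%, was found 1 time before Ccl3 and 1 time before Xcl1, and TATAAA, held by 12.4%, 3 times before Ccl9. Both strands were searched for each string and overlapping matches were counted. The letters are no measure of binding.

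The libraries held 2535, 2597 and 6432 cells in anti-PD-1 replicates 1, 2 and 3 and 11495 cells in IgG, 23059 of 56359 barcodes. Median depth was 16829, 16325, 12084 and 6329 UMIs per cell in that order. By some measures the libraries fell into 2 pairs. The names set replicates 1 and 2 together, but no label pairs replicate 3 with IgG. Barcodes with exactly 1 guide made up 27.2% and 26.9% in anti-PD-1 replicates 1 and 2, against 48.7% in anti-PD-1 replicate 3 and 51.1% in IgG, and the study's methods name 2 batches without saying which library belonged to which. The shares of effector-like cells and of cluster 7, cell states described further on, split the libraries in the same way, whereas median depth and the B or plasma cell sum did not bring replicate 3 and IgG together. Only the pair of replicate 3 and IgG holds both treatments, so the members' levels by treatment are given for that pair too. Thinned shares are given as means over the anti-PD-1 libraries. All 9 T cell identity markers, among them Cd3e and Cd8a, were present in all libraries at a summed 8654 to 9475 CPM. The highest summed level of any list of another cell type was that of B or plasma cells, at 57.6 to 252 CPM. With 10 UMIs of such a list as the limit, 89 kept cells passed it, and libraries shared 3 to 18 barcodes.

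The members differed widely in level, and anti-PD-1 libraries lay above IgG for Ccl3, Ccl4, Ccl5 and Ccl9, below it for Ccl1 and on both sides of it for Xcl1. With 1 IgG library such a separation is common. Among all genes tested, 22% had all 3 anti-PD-1 libraries above IgG and 23.9% had them below. The kit tags 1 end of each transcript, so the values were not divided by gene length, and capture may still differ between genes.

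Ccl5, a ligand of Ccr1 that effector and memory CD8+ T cells keep at high transcript levels, stood at 3542, 3545 and 5226 CPM in anti-PD-1 replicates 1 to 3 and at 2664 CPM in IgG. The mean over anti-PD-1 was 4104 ± 971 (SD, n = 3). Replicate 3 was the highest and IgG the lowest of the 4 libraries, and the groups did not overlap. After each cell was thinned to 2000 UMIs, so that depth was equal, Ccl5 was found in 86.9% ± 1.62 (SD, n = 3) of the anti-PD-1 cells and in 75.7% of the IgG cells (exact 95% interval 74.9 to 76.5, counting error only, as for all such intervals here). Without thinning, 98.3% to 98.8% of the anti-PD-1 cells and 88.9% of the IgG cells held a UMI.

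Ccl4, an inflammatory chemokine that attracts T cells and myeloid cells, stood at 3598, 4133 and 3943 CPM with anti-PD-1, a mean of 3892 ± 272 (SD, n = 3), and at 2616 CPM with IgG. Its neighbour Ccl3, a ligand of Ccr1, stood at 1622, 1944 and 1251 CPM, a mean of 1606 ± 347 (SD, n = 3), and at 823 CPM with IgG. For both genes every anti-PD-1 library was above the IgG library. At 2000 UMIs per cell, Ccl4 was found in 64.9% ± 3.89 (SD, n = 3) of the anti-PD-1 cells and 52.5% of the IgG cells (51.6 to 53.4), and Ccl3 in 43.4% ± 5.10 (SD, n = 3) and 30.4% (29.5 to 31.2). Unthinned shares were 89.9% to 93.2% against 71.3% for Ccl4, and 67.6% to 77.5% against 46.2% for Ccl3.

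Xcl1 stood at 2153, 2771 and 1553 CPM with anti-PD-1, a mean of 2159 ± 609 (SD, n = 3), and at 2095 CPM with IgG, inside the anti-PD-1 range. Its thinned share was 40.5% ± 5.28 (SD, n = 3) with anti-PD-1 and 48.7% with IgG (47.8 to 49.6), whereas its unthinned share was 61.9% to 73.0% and 65.1%. IgG was thus above every anti-PD-1 library in the thinned share but not in the level.

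Ccl1 was the one member with its highest value in IgG, at 617 CPM, against 279.9, 303 and 503 CPM with anti-PD-1, a mean of 362 ± 123 (SD, n = 3). The thinned share was 25.2% in IgG (24.4 to 26.0) and 16.5% ± 3.18 (SD, n = 3) with anti-PD-1. Its unthinned share, 40.0% in IgG and 33.0% to 44.1% with anti-PD-1, did not separate the groups.

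Ccl9, a Ccr1 ligand better known from macrophages, was rare. It gave 255, 162 and 270 UMIs with anti-PD-1 and 94 with IgG, or 5.22, 3.36, 3.05 and 1.14 CPM (counting intervals 4.60 to 5.91, 2.86 to 3.92, 2.70 to 3.44 and 0.93 to 1.40). These UMIs sat in 67, 59, 87 and 58 cells, and the 5 cells with most of them held 52.5%, 45.7%, 40.7% and 34.0% of the UMIs of their library. The level of Ccl9 thus rested on single cells, one of which held 50 UMIs. Macrophage and other myeloid markers summed to 1.52 to 4.53 CPM in these libraries, and 8 kept cells held 10 UMIs of that list. The 89 kept cells with 10 UMIs of any other-type list held 1, 1, 0 and 0 of the Ccl9 UMIs, and without them the treatment difference given further on stayed at 1.77.

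**Figure D1:**
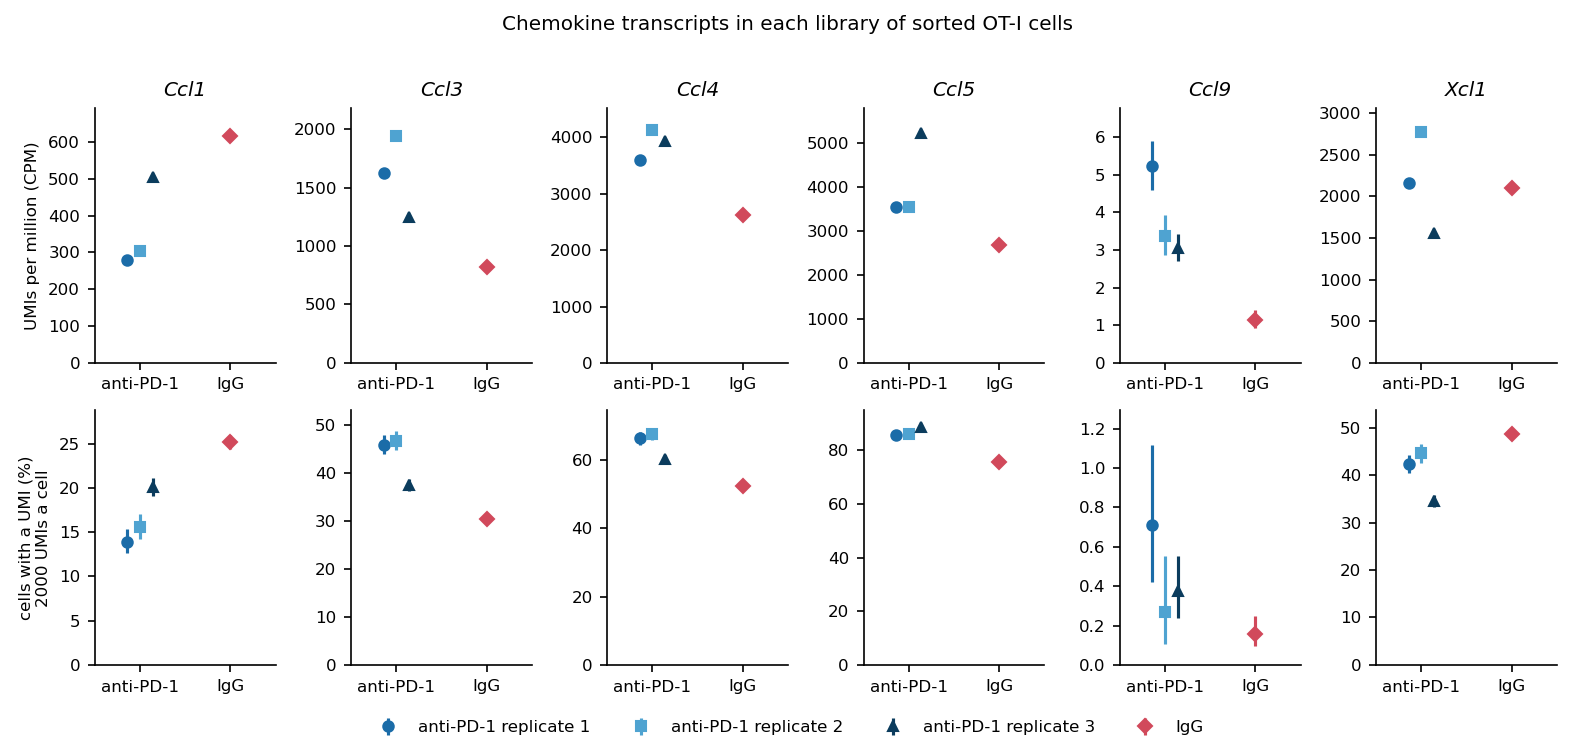
The upper row plots the level in CPM and the lower row the percentage of cells with a UMI at 2000 UMIs per cell, for each of the 6 genes, with 1 point per library and bars for the counting 95% interval where it is wider than the point. All 3 anti-PD-1 libraries lie above IgG for Ccl3, Ccl4, Ccl5 and Ccl9 and below it for Ccl1, while Xcl1 overlaps in CPM. In CPM, 22% of all genes lie above in this way and 23.9% below.

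Within a library, the transcripts were spread unevenly over cells. At 2000 UMIs per cell, the 10% of cells with most Ccl5 held 38.0% to 44.8% of its UMIs, the flattest distribution of the members. The same share of cells held 61.2% to 70.3% for Ccl4, 68.9% to 78.4% for Ccl3, 72.4% to 81.7% for Xcl1 and 82.7% to 92.5% for Ccl1. Single cells reached 4659 UMIs of Ccl4 and 2084 of Ccl3, both in replicate 1. Cells with none of the 6 transcripts at this depth were 2.12% to 2.86% of an anti-PD-1 library and 4.75% of IgG, and cells with 3 or fewer members were the majority in every library. Cells without a T cell marker were 0 of those kept, so there was no cell type in these libraries from which the share given by free RNA could be read.

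To ask how checkpoint blockade changed chemokine transcripts, counts summed per library were compared by edgeR's quasi-likelihood test, with the single IgG library given the spread estimated between the others. None of the 6 members passed an adjusted p of 0.05, nor did any of the 13810 genes tested (0%). At an unadjusted p under 0.05, 3 members and 282 genes (2.04%) were found, and DESeq2 called 5 genes and 0 members. In edgeR's fit Ccl9 was at 1.77 ± 0.40 (anti-PD-1 minus IgG, log2, SE), Ccl3 at 0.98 ± 0.28 and Ccl4 at 0.59 ± 0.15, and these were the 3 members under the unadjusted threshold. Ccl5 was at 0.63 ± 0.26, Ccl1 at -0.76 ± 0.33 and Xcl1 at 0.06 ± 0.33. The adjusted p was 0.987 for 5 members and 0.998 for Xcl1.

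All 3 anti-PD-1 libraries lay above the IgG library for 4 members, where 22% of all genes did so, and below it for 1 member, where 23.9% did. In the pair that holds both treatments, replicate 3 over IgG was 2.66 for Ccl9, 1.96 for Ccl5, 1.52 for Ccl3, 1.51 for Ccl4, 0.82 for Ccl1 and 0.74 for Xcl1.

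With a term for the 2 pairs of libraries, 283 genes (2.05%) and 4 members were called, Ccl9 at 1.41 ± 0.21 (adjusted p = 1.52e-08), Ccl5 at 0.97 ± 0.16 (adjusted p = 1.1e-06), Ccl3 at 0.60 ± 0.15 (adjusted p = 0.00785) and Ccl4 at 0.59 ± 0.16 (adjusted p = 0.0183). Ccl1 at -0.30 ± 0.14 and Xcl1 at -0.43 ± 0.16 were not called. In that fit the treatment difference rests on replicate 3 against IgG, and the spread on replicate 1 against replicate 2, whose independence is not stated. Without replicate 3, which leaves the treatments in different pairs, Ccl1 was at -1.06 ± 0.12 and the other members were higher with anti-PD-1. Treatment and pair cannot be told apart there. In bulk sums, fewer cells that carry a transcript and less transcript per cell cannot be told apart either.

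Nontargeting cells, which carry no metabolic knockout, gave the same order of groups for Ccl3, at 1644, 1970 and 1414 CPM with anti-PD-1 and 710 with IgG, and for Ccl5, at 3541, 3383 and 5790.0 against 2726. Ccl1 was again highest in IgG, at 648 CPM against 259.9, 226 and 519. Barcodes without a guide call, which the kept cells exclude, had less Xcl1 and more Ccl5 than the cells with 1 guide in every library. Their Xcl1 was 1217, 1355 and 574 CPM with anti-PD-1 and 776 with IgG, and their Ccl5 was 4516, 4761, 8150 and 4912. What these barcodes hold was not tested.

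The receptor genes Ccr8, Ccr1, Ccr3 and Xcr1 were low in the OT-I cells. Ccr8, the receptor of Ccl1, stood at 9.75, 9.28 and 5.08 CPM with anti-PD-1 and 4.72 with IgG, and Ccr1, Ccr3 and Xcr1 at 0.37 to 1.12 in every library. None of these 4 was called by edgeR in either direction, and none had an unadjusted p under 0.05. With the term for the pairs, none of them was called either.

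Of 20 antigen response genes, 0 were called by edgeR and 2 higher and 1 lower had an unadjusted p under 0.05, with a median log2 difference of 0.28, against 0.01 over all genes. Tnfrsf9, a costimulatory receptor, differed by 0.32 ± 0.12, Ifng, the cytokine interferon gamma, by 0.09 ± 0.27, the transcription factor gene Irf8 by 0.18 ± 0.14, and Nfkbia, the inhibitor of NF-kappaB, by 1.08 ± 0.61. Of 6 cytotoxic genes, 0 were called and 2 higher had an unadjusted p under 0.05, with a median of 0.26. The granule genes differed by 0.13 ± 0.13 for Nkg7, 0.58 ± 0.20 for Gzmb, 0.03 ± 0.63 for Gzma and 0.39 ± 0.25 for Prf1. With the term for the pairs, 0 antigen response genes were called higher and 1 lower, with a median of -0.03, and 4 cytotoxic genes were called higher, with a median of 0.66. Among those 4 were Gzma at 0.83 ± 0.15 and Gzmb at 0.81 ± 0.16. The members had a median of 0.61 without the term and 0.60 with it.

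From cell to cell, Ccl3 and Ccl4 went together more closely than any other pair. Pearson's r of log counts at 2000 UMIs per cell was 0.77, 0.77 and 0.79 in anti-PD-1 replicates 1 to 3 and 0.78 in IgG, over 2535, 2597, 6432 and 11332 cells. In cells with a Ccl3 UMI, 85.7% to 90.5% also held Ccl4, against 38.0% to 48.1% of the cells without Ccl3. The annotation shows no overlap between these neighbours.

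Ccl1 and Xcl1, on different chromosomes, formed the next pair at r = 0.41 (0.38 to 0.44 over libraries). Of the cells with Ccl1, 54.4% to 76.4% held Xcl1, against 29.6% to 43.2% of the others. Ccl5 and Xcl1 went opposite ways in all 4 libraries, with r = -0.26 (-0.30 to -0.23). Ccl3 and Ccl4 each had r of 0.21 to 0.24 with Ccl1 and Xcl1. Ccl4 with Ccl5 was at 0.18 and Ccl3 with Ccl5 at 0.10. All pairs with Ccl9 were under 0.04 in size, too weak in such sparse counts to be read.

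Centring each cell on its state, as defined further on, gave 0.76 for Ccl3 and Ccl4, 0.36 for Ccl1 and Xcl1 and -0.20 for Ccl5 and Xcl1. Larger changes were seen for Ccl4 with Xcl1, from 0.23 to 0.14, and for Ccl3 with Xcl1, from 0.24 to 0.17. Cells of a library share its depth and free RNA, so these correlations describe the libraries and carry no p.

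**Figure D2:**
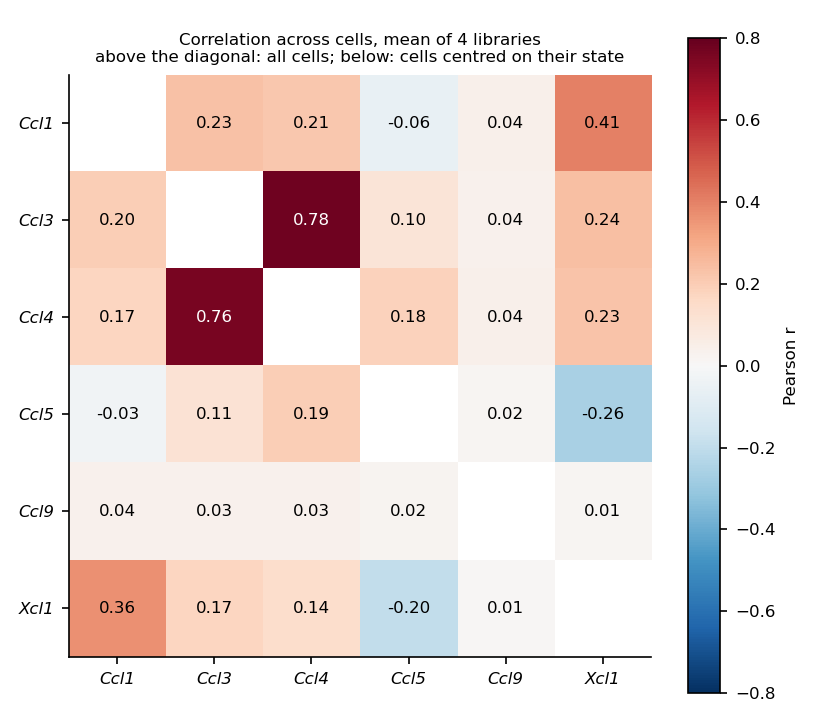
Pearson's r across cells between the 6 genes, each cell thinned to 2000 UMIs, as the mean of 4 libraries, above the diagonal over all cells and below it with each cell centred on its state. Ccl3 with Ccl4 stands at 0.78 and 0.76, Ccl1 with Xcl1 at 0.41 and 0.36, and Ccl5 with Xcl1 at -0.26 and -0.20.

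Among 2187 genes with a UMI in at least 10% of thinned cells of every library, the genes most like each member fell in different groups. After each other, Ccl3 and Ccl4 were most like Ifng, at 0.54 and 0.48, Nr4a2, a nuclear receptor induced by T cell receptor signals, at 0.29 and 0.33, and Irf8 at 0.25 and 0.29. The fifth place was Prf1, the pore-forming perforin, for Ccl3, at 0.25, and Srgn, a granule proteoglycan, for Ccl4, at 0.26. Xcl1 was most like Crtam, an activation-induced adhesion receptor, at 0.46, then Ccl1, Npm1 at 0.32, Ncl at 0.29 and Cd160 at 0.28. Npm1 and Ncl encode nucleolar proteins. Ccl1 was most like Xcl1, then Crtam at 0.29, Ccl3, Ccl4 and Ifng at 0.19. Ccl5 had another set of neighbours, S100a6 at 0.32, Nkg7 at 0.30, Tmsb4x at 0.30, Malat1 at 0.26 and Cxcr6, the receptor of Cxcl16, at 0.25. For Ccl9 the highest value was 0.04, for Zbtb32.

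To place the members in cell states, the cells were clustered in Seurat with all 44 chemokine genes left out of the variable genes. Of the 9 clusters, 6 took a name from marker lists. The effector-like cluster (3572 cells) was led by Ifng, Crtam and Rgcc. The precursor exhausted-like cluster (1602 cells) was led by Ccr7 and Tcf7, and the effector memory-like cluster (1129 cells) by Klf2 and S1pr1. Proliferating G1/S-like (4308 cells), proliferating G2/M-like (1602 cells) and interferon response-like cells (96) were the others. The largest cluster (7079 cells), led by Gzmc and Spp1, had the highest mean of the exhausted marker list and is called the Gzmc Spp1 cluster. Clusters 3 (3334 cells, histone genes) and 7 (337 cells, with 1 and 7 cells in anti-PD-1 replicates 1 and 2) stayed unnamed. Doublets were limited by the UMI range and the single guide only. Ifng and Crtam, which go with Ccl3, Ccl4, Ccl1 and Xcl1, helped to draw the clusters, so differences between states are descriptions, and the fits to them serve for sizes and counts only.

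The effector-like cells had the highest mean levels of Xcl1, Ccl4, Ccl3 and Ccl1. Xcl1 stood at 7903, 9751 and 6742 CPM in that state in anti-PD-1 replicates 1 to 3 and at 8322 in IgG, 2.87 to 4.71 times the next highest state of the same library, over states with at least 10 cells there. Ccl4 stood at 6518, 8915, 10260.3 and 7350.0 CPM, 1.53 to 2.50 times the next state. Ccl3 stood at 3199, 4423, 2968 and 2386 CPM, 1.84 to 2.71 times the next state. For these genes every library's effector-like value was above every other state's in that library, and the 4 values lay above those of all other states in any library, at the same limit of 10 cells. Below that limit, the 7 cells of cluster 7 in replicate 2 stood at 2785 CPM of Ccl3. Ccl1 stood at 643, 816, 1249 and 1428 CPM and was highest in this state in 3 of 4 libraries, while in replicate 1 the precursor exhausted-like cells were higher.

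Ccl5 had a different map. Its effector-like level, 2544, 2566, 3841 and 2166 CPM, was 0.31 to 0.46 of the highest state of the same library. The effector memory-like cells held 6452, 6110, 8387 and 4784 CPM, and the Gzmc Spp1 cluster 4855, 5245, 7936 and 4982. The interferon response-like cells, 11 to 38 in a library, held 6217, 8226, 7564 and 2910 CPM, the highest state in replicate 2. Precursor exhausted-like and proliferating G2/M-like cells lay below the effector-like mean of Ccl5. In the effector memory-like cells the other members were low, with means over the 4 libraries of 192 CPM for Xcl1, 715 for Ccl4, 227 for Ccl3 and 31.2 for Ccl1. For Ccl3 and Ccl4 replicate 2 stood apart there, at 552 and 1291 CPM.

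The precursor exhausted-like cells were second in Xcl1 but low in Ccl3, Ccl4 and Ccl5. Xcl1 stood at 2749, 2706, 1967 and 1769 CPM, second to the effector-like cells and above all other states in each library. Ccl1 stood at 783, 423, 640 and 661 CPM, but its direction in this state turned with other ways to draw the states, as given below with the fits. Ccl3 (202 to 504 CPM) and Ccl4 (791 to 1219) were at the low end, and Ccl5 (1293 to 2142) was the lowest of the named states. On the mean over libraries, the Gzmc Spp1 cluster came next after the effector-like cells for Ccl4, at 2734 to 4269 CPM, and for Ccl3, at 882 to 1928. It was low in Xcl1, at 509 to 914 CPM.

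**Figure D3:**
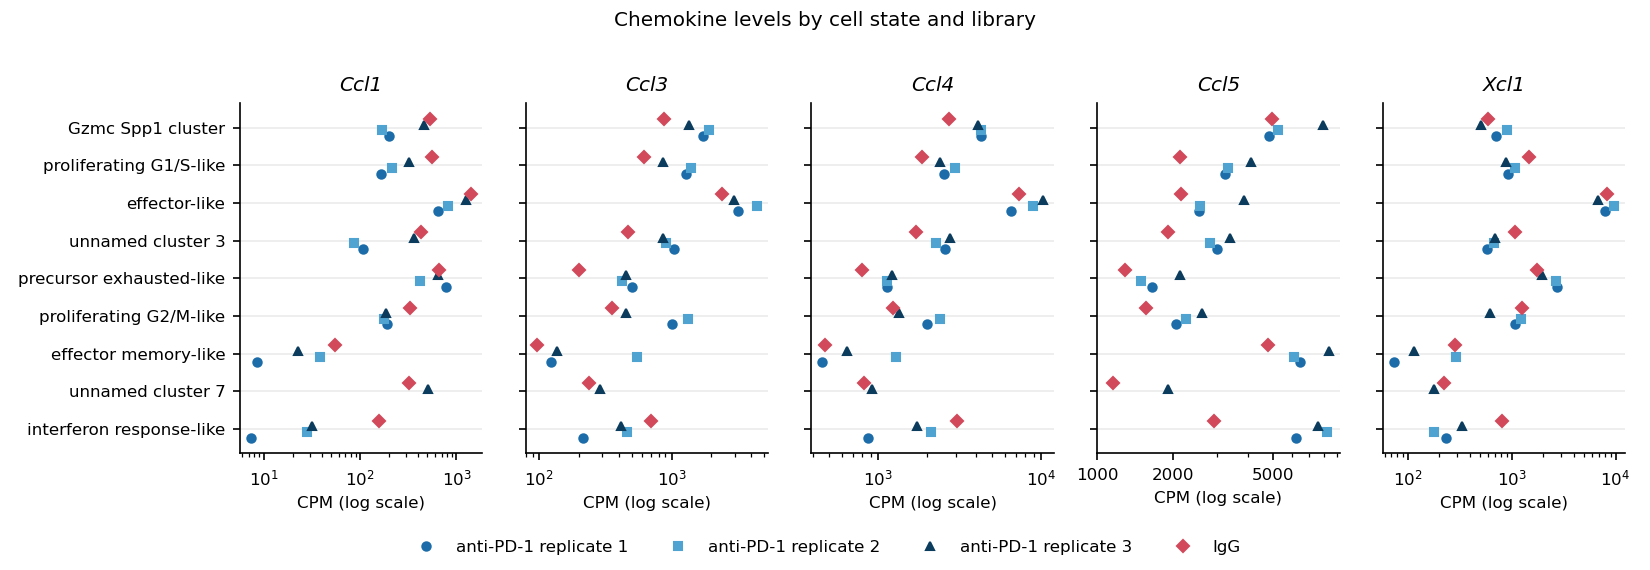
CPM on a log axis for 5 genes in the 9 cell states, with 1 point per library and state of at least 10 cells. Effector-like cells lie farthest right for Ccl3, Ccl4 and Xcl1 in all 4 libraries, while effector memory-like cells lie far left for these genes and to the right for Ccl5.

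State accounted for 28.3% of the variance of Xcl1 across cells on the log scale (mean over 4 libraries), 13.7% of Ccl5, 10.4% of Ccl4, 8.01% of Ccl3, 4.51% of Ccl1 and 0.19% of Ccl9. Most of the variance of each member therefore lay within states. That part includes counting error in the thinned counts, which weighs more for members with few UMIs per cell, and it was not split further. Thinned shares kept the contrast between Xcl1 and Ccl3 in the precursor exhausted-like cells, where 67.2% of the cells held Xcl1 and 19.1% held Ccl3 (means over 4 libraries). In effector-like cells 78.1% held Xcl1 and 55.4% held Ccl3, and in effector memory-like cells 18.9% and 13.5%.

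Fits on counts summed per state and library, each state against the mean log level of the other states with the library as a block, gave the following sizes. Higher and lower stand here for an adjusted p under 0.05 in edgeR, which is no independent test, since the same cells drew the states. In effector-like cells 5 members were higher, where 30.5% of 11538 genes were, and 0 lower, where 27.5% were, with 3.85 ± 0.14 (log2, SE) for Xcl1, 2.62 ± 0.16 for Ccl3, 2.58 ± 0.18 for Ccl1 and 2.45 ± 0.14 for Ccl4. The fifth was Ccl9 at 2.38 ± 0.69, which was not past the threshold without replicate 3 (adjusted p = 0.066). In precursor exhausted-like cells 2 were higher (background 23.9%) and 3 lower (16.5%). Xcl1 was at 1.78 ± 0.15, Ccl5 at -0.96 ± 0.08, Ccl4 at -0.91 ± 0.18 and Ccl3 at -0.86 ± 0.21, which without a library term was -0.82 and not past the threshold (adjusted p = 0.0885). Ccl1 was at 1.85 ± 0.20 but turned to -0.25 when chemokine genes were allowed into the clustering and to -0.39 with marker gates in place of clusters.

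In effector memory-like cells 1 member was higher (background 23.3%), Ccl5 at 1.21 ± 0.07, and 4 were lower (14.5%), from -1.65 ± 0.20 for Ccl4 to -3.24 ± 0.36 for Ccl1. In the Gzmc Spp1 cluster 5 were higher (21.5%) and 0 lower (14.5%), with 1.23 ± 0.17 for Ccl3, 1.13 ± 0.15 for Ccl4 and 1.03 ± 0.07 for Ccl5. The count was 3 with DESeq2 and 3 without replicate 3, and Ccl1 and Ccl9 were the members lost in both. Ccl9, at 2.16 ± 0.67, had 352 of its UMIs in these cells, and stood at 0.37 with marker gates. Ccl1, at 0.59 ± 0.21, lay below the effector-like level in every library and turned to -0.31 with marker gates. Its level in this cluster was 198, 169 and 460 CPM with anti-PD-1 and 526 with IgG. That was below all kept cells of the same library, at 279.9, 303, 503 and 617 CPM. The fit weighs each state equally, whatever its number of cells, so the positive size is no enrichment over all cells. Of the 20 antigen response genes, 18 were higher and 1 lower in effector-like cells (30.5% and 27.5% of all genes). Several of them, among them Ifng, Crtam and Tnfrsf9, are also on the effector marker list that named this cluster. That count is therefore partly set by the naming. In effector memory-like cells 2 of the 20 were higher and 11 lower (23.3% and 14.5%). In the precursor exhausted-like cells 5 were higher and 3 lower (23.9% and 16.5%), and in the Gzmc Spp1 cluster 7 were higher and 2 lower (21.5% and 14.5%). Of the 6 cytotoxic genes, 6 were higher in the Gzmc Spp1 cluster, where 21.5% of all genes were. Among them, Gzma and Prf1 are also leading genes of that cluster, so this count is partly set by the clustering. In the precursor exhausted-like cells 5 of the 6 cytotoxic genes were lower (16.5% of all genes). In effector-like cells 3 were higher and 3 lower (30.5% and 27.5%). In effector memory-like cells 3 were higher and 2 lower (23.3% and 14.5%).

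Cell states were unequally frequent in the libraries. Effector-like cells made up 21.2%, 20.9% and 13.9% of the anti-PD-1 libraries and 13.9% of IgG, and effector memory-like cells 6.82%, 7.01%, 5.32% and 3.76%. Levels were therefore compared within states, where the frequency plays no part. Ccl3 was higher in all 3 anti-PD-1 libraries than in IgG in 7 of 8 states and Ccl5 in 7 of 8, as were 3.2% of 11538 genes in at least 7 states. Ccl4 was so in 5 of 8 (12.6% of genes in at least 5), and Ccl1 was lower in all 3 in 7 of 8 (2.89% of genes in at least 7). Xcl1 was higher in all 3 in 1 state and lower in 4 (20.5% of genes lower in at least 4). The states come from the same 4 libraries and are no repeats of the comparison. Cluster 7, at 0.04% and 0.27% of the cells in replicates 1 and 2, 1.77% in replicate 3 and 1.87% in IgG, was not read.

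For the pair of replicate 3 and IgG, Ccl5 was higher with anti-PD-1 in 8 of 8 states (5.51% of genes), by 0.67 to 1.38 on the log2 scale. Ccl3 and Ccl4 were higher in 7 of 8 states each (15.6% of genes in at least 7), the exception in both cases being the interferon response-like cells. Ccl1 was lower in 8 of 8 states (3.89% of genes), by -0.05 to -2.31. Xcl1 was lower in 7 of 8 (11% of genes in at least 7), from -1.32 to 0.15, and higher in the precursor exhausted-like cells. In effector-like cells, where Ccl3 and Ccl4 were highest, Ccl4 stood at 6518, 8915 and 10260.3 CPM with anti-PD-1 and at 7350.0 with IgG, so that the groups overlapped, whereas Ccl3 did not overlap, with 2968 as the lowest anti-PD-1 value and 2386 in IgG. These within-state values are descriptions, since 1 IgG library allows no spread of its own.

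**Figure D4:**
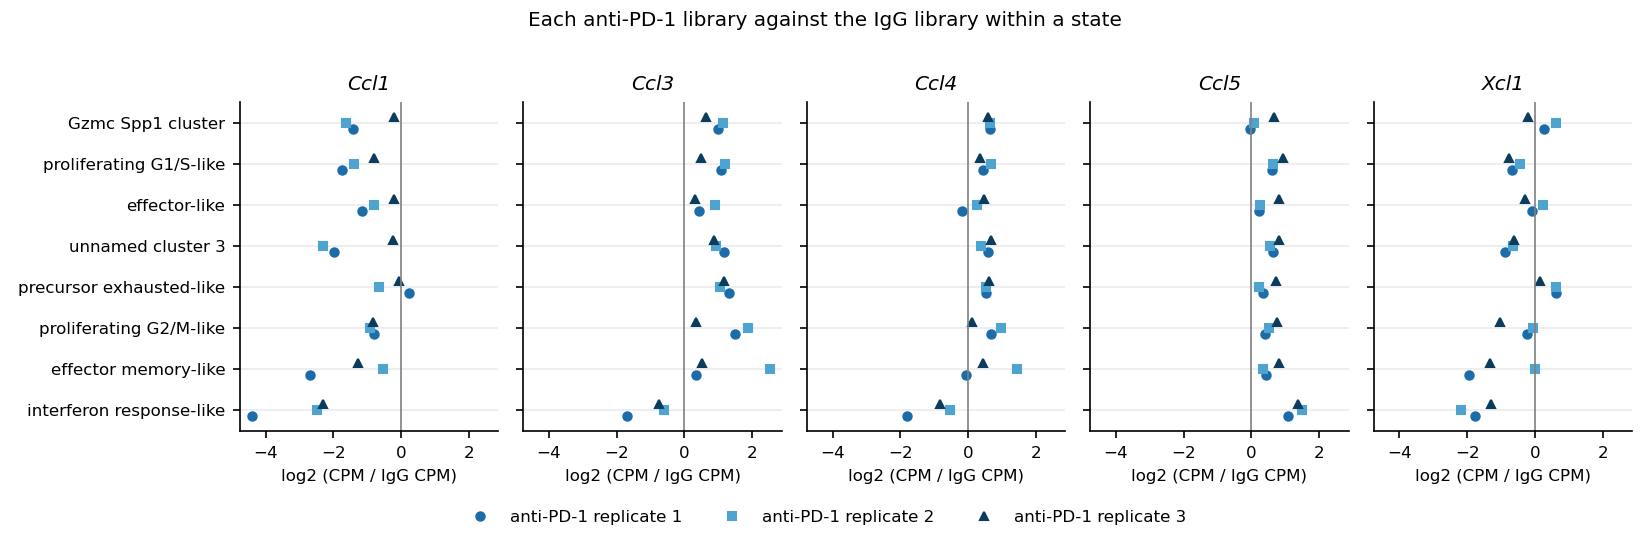
The log2 ratio of each anti-PD-1 library to the IgG library in CPM within 8 cell states, for 5 genes, with 1 point per anti-PD-1 library and a line at equal levels. Ccl3 and Ccl5 points lie right of the line in most states and Ccl1 points left of it, while the interferon response-like cells, 96 in all, depart from the others for Ccl3 and Ccl4.

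To ask whether any metabolic knockout changed the chemokines, counts were summed per guide target and anti-PD-1 library, and each target was compared with nontargeting cells (sgNT) with the library as a block. The fit held 229 sums, 82 targets and 9419 genes, with 10 to 210 cells behind a target's sum (median 36) and 321, 372 and 727 sgNT cells. None of the members is itself a target. Over all targets, 418 of 772358 gene and target pairs (0.0541%) were called at an adjusted p of 0.05 within each target, and 1 of them was a member, Ccl9 in Cept1 cells at 4.14 ± 0.81 (log2, SE, adjusted p = 0.00896). Cept1 encodes an enzyme that makes choline and ethanolamine phospholipids.

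That call rested on 1 cell. Of 86 Cept1 cells in replicate 3, 1 held all 50 Ccl9 UMIs, the other anti-PD-1 libraries had too few Cept1 cells for a sum, and IgG gave 1.52 CPM against 0.66 in sgNT. Without replicate 2, Ccl9 was called in Cept1 and Pi4k2b cells, and without replicate 1 or replicate 3 no member was called.

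The other 5 members were called in no target. At an unadjusted p under 0.05, where 3.76% of all pairs lie, and over the 70 targets with sums in all 3 libraries, Ccl5 had 1 target higher and 3 lower, Ccl4 2 lower, Ccl3 1 lower, Ccl1 1 lower and Xcl1 1 higher. Ccl9 had 6 higher and 1 lower. The median SE was 0.26 for Ccl5, 0.43 for Ccl4, 0.50 for Ccl3, 0.62 for Xcl1, 0.65 for Ccl1 and 1.40 for Ccl9, so that at this depth smaller differences were least detectable for Ccl9 and most for Ccl5.

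Among these 70 targets, the one with the smallest p for Ccl3 and Ccl4 was Pla2g4b, a phospholipase A gene. Ccl4 had a smaller unadjusted p, 0.0127, in Pigm cells, a target with a sum in 1 library only. Ccl3 was at 327, 762 and 549 CPM in Pla2g4b cells and at 1644, 1970 and 1414 in sgNT cells, a log2 difference of -1.56 ± 0.53 (unadjusted p = 0.0037). It was lower in all 3 libraries, from 13, 15 and 79 cells. Ccl4 was at 582, 2879 and 2178 CPM against 2989, 4321 and 4317, or -1.03 ± 0.44 (unadjusted p = 0.0209). With IgG the values went the other way, at 798 CPM against 710 for Ccl3 and 3026 against 2406 for Ccl4, and neither gene passed adjustment, with an adjusted p of 1.

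Ccl5 had its smallest p in cells with guides to Setd1b, a histone methyltransferase gene, at -0.79 ± 0.26 (unadjusted p = 0.00287, adjusted p = 0.338). It stood at 1557, 2545 and 3365 CPM against 3541, 3383 and 5790.0 in sgNT cells, and in IgG at 1826 against 2726, lower in all 4 libraries. Ccl1 had its smallest p with Pik3cd, the delta subunit of a lipid kinase downstream of the T cell receptor, at -1.77 ± 0.73 (unadjusted p = 0.016, adjusted p = 0.549). It stood at 62.3, 41.1 and 168 CPM against 259.9, 226 and 519, and in IgG at 388 against 648. Of these cells 210 were in replicate 3 and 25 and 28 in the others, and in replicate 1 a single cell held 20 of the 25 Ccl1 UMIs.

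Xcl1 had its smallest p with Gpx3, a glutathione peroxidase gene, at 1.58 ± 0.63 (unadjusted p = 0.0131, adjusted p = 0.996), from 11, 18 and 52 cells. It stood at 12366, 4699 and 1972 CPM against 2034, 2788 and 1341 in sgNT cells, and in IgG at 1231 against 1984, higher in 3 anti-PD-1 libraries and lower in IgG. Without replicate 1 the difference was 0.70, and in replicate 2 a single cell held 962 of the 1405 Xcl1 UMIs. Among the 70 targets, Ccl9 had its smallest p with Cyp2a12, a cytochrome P450 gene, at 2.82 ± 0.72 (unadjusted p = 0.00013, adjusted p = 1), where 1 cell of replicate 1 held 36 of 38 UMIs. Without replicate 1 that Ccl9 difference was 0.66, and in IgG Ccl9 stood at 0 CPM in Cyp2a12 cells against 0.66 in sgNT cells. These targets were picked for their p among 70 each, so their values are descriptions.

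**Figure D5:**
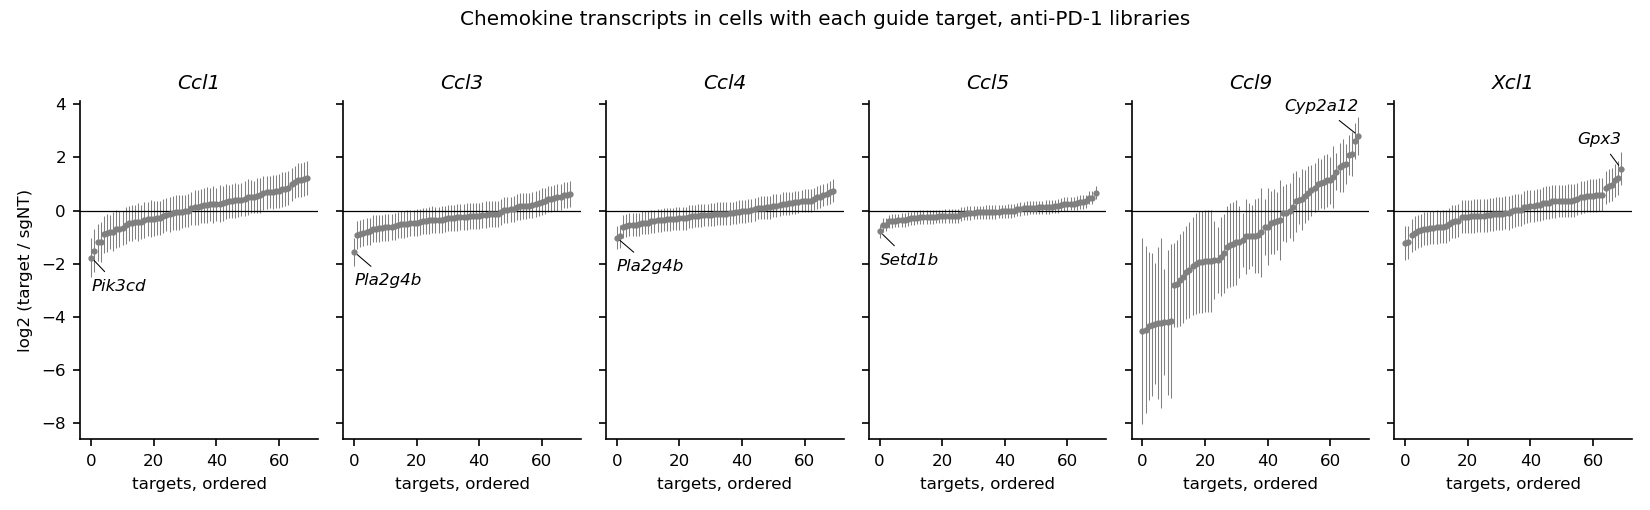
The log2 difference of each guide target from sgNT in the fit to the anti-PD-1 data, with bars of 1 SE, for 70 targets ordered within each gene. The target with the smallest unadjusted p is named in each panel. The spread is narrowest for Ccl5, from -0.79 to 0.67, and widest for Ccl9, from -4.54 to 2.82.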

How the data were processed

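The members and gene lists were chosen with earlier results of these data known. The deposited counts are raw UMIs for each feature in each barcode. For these the authors ran Cell Ranger 3.1.0 on mm10, which also called the guides. The annotation release and the use of strand are not given in the sources used here.

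Cells with exactly 1 guide, a UMI total at most 3 median absolute deviations from that library's median and at most 10% mitochondrial UMIs were kept. For shares and correlations each cell was thinned to 2000 UMIs, and 163 shallower cells of the IgG library were dropped there. Total gene UMIs of the kept cells were 48821477, 48182760 and 88543446 in anti-PD-1 replicates 1 to 3 and 82120349 in IgG. Share intervals are exact Clopper-Pearson and CPM intervals exact Poisson, at 95%, for counting error only.

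Clusters came from Seurat 5.3.0 (integration by canonical correlation, regression of UMIs, mitochondrial share and cell cycle difference, resolution 0.3). A cluster took the name of a list that held its leading gene, had most genes among its 10 leading ones and had at least 3 markers detected, chemokine genes aside.

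Sums per library, per state and library, and per target and anti-PD-1 library, each of at least 10 cells, were tested with edgeR 4.0.16 (quasi-likelihood, filterByExpr, TMM, Benjamini-Hochberg at 0.05). The target model was too large for the standard functions and was solved by a routine for the same model with edgeR's dispersion and test steps, tested on simulated data. DESeq2 1.42.0, R 4.3.3, limma 3.58.1, Python 3.11.15, numpy 2.4.6, pandas 2.3.3, scipy 1.17.1 and matplotlib 3.10.9 were used. Named were the 6 members, the 5 genes most like each, 2 to 4 genes of a list by mean CPM, other chemokine genes above 10 CPM, targets in which a member was called, and each member's target with the smallest p. One gene of the lists is not reported here.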

Additional observations from a re-analysis of the deposited data

Results flagged for a closer look

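In 3 cases all anti-PD-1 libraries lay on one side of IgG in a state and on the other side in other states. The differences between states were not tested. In the interferon response-like cells, Ccl3 was lower in all 3 anti-PD-1 libraries than in IgG, at 214, 460.1 and 417 CPM against 699.7, a log2 ratio of the mean of -0.94, while it was higher in all 3 in 7 other states. Ccl4 was lower in all 3 in the same cells, at 865, 2122 and 1728 CPM against 3037, a log2 ratio of -0.95, and higher in all 3 in 5 other states. This state had 11, 11 and 36 cells in the anti-PD-1 libraries and 38 in IgG. Xcl1 was higher in all 3 anti-PD-1 libraries in precursor exhausted-like cells, at 2749, 2706 and 1967 CPM against 1769, a log2 ratio of 0.48, and lower in all 3 in 4 other states.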

How the results depend on the processing

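Members called by treatment numbered 0 with DESeq2, without the low-count filter, without cells with other-type markers and in nontargeting cells only. They were 4 with the term for the pairs of libraries and 0 to 5 when 1 anti-PD-1 replicate was left out, with 5 without replicate 3. Genes called went from 0 to 5 with DESeq2, 283 with the term and 3316 without replicate 3. Xcl1 turned to -0.43 with the term and ranged from -0.18 to 0.26 with 1 replicate left out, negative without replicate 2, and was called in none of these. By state, Ccl5 in effector-like cells turned to 0.065 with chemokine genes in the clustering. In precursor exhausted-like cells marker gates left 3 members called and the fit without a library term 4, as did chemokine genes in the clustering, against 5. There Ccl1 turned to -0.25 and Ccl9 to -2.44 with chemokine genes in the clustering, and to -0.39 and -0.79 with gates. Ccl9 in effector memory-like cells turned to 0.27 with gates. In the Gzmc Spp1 cluster 3 members were called with DESeq2 and 3 to 5 with 1 library left out, with 3 without replicate 3. There Ccl1 turned to -0.31 with gates and Xcl1 to 0.053 with chemokine genes in the clustering. The state fit without a library term called 1998 genes in that cluster, against 4146. Members called by knockout ranged from 0 to 2 with 1 replicate left out. Gene and target pairs called were 2073 without the filter, 203 without cells with other-type markers, and 145 to 273 with 1 replicate left out, against 418. The correlation of Ccl3 and Ccl4 was 0.81 at 4000 UMIs per cell. Thinned shares rose at 4000 UMIs for all 6 members, to 22.1% for Ccl1 and 92.5% for Ccl5 with anti-PD-1. The cause of these changes was not tested. Alternatives to the knockout fit with DESeq2 were not run. No paired analysis was possible because the 2 treatments share only replicate number 1, a number that names samples and pairs none. The term for the pairs of libraries rests on the share of barcodes with 1 guide, not on replicate numbers. Depth limits Ccl9 most, with 94 to 270 UMIs in a library.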
